A study of Mus musculus with 12 samples.

Results

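Contractile actin cytoskeleton genes were followed in mouse kidney tumors that had lost the kinases Lats1 and Lats2. The set held 9 genes of the 24432 in the deposited table: Acta2, Tagln, Cnn1, Myl9, Tpm1, Tpm2, Actn1, Flna and Vcl. Each was taken by its Ensembl mouse identifier, and 9 of 9 were found. All 9 passed the filter on low values (at least 1 FPKM in at least 3 of the 12 libraries). Of these, 8 were at 1 FPKM or more in all 12 libraries, and Cnn1 was under 1 FPKM in the 3 proximal tubule libraries, so it passed through the tumors. FPKM counts sequenced fragments per length of transcript and per library total, which allows levels of different genes to be set side by side.

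Bulk RNA was measured in 12 libraries, 3 in each of 4 groups, and the mice and the implanted cells were of mixed strain background. Primary kidney tumors and lung metastases were dissected from Slc34a1CreERT2;Lats1/2flox/flox mice 4 months after 3 injections of tamoxifen, given at 1 month of age. In these mice a tamoxifen-activated Cre recombinase is driven by the gene of a proximal tubule phosphate transporter, so Cre activity is aimed at proximal tubule cells while dissected tissue also holds cells of other types. The control libraries came from proximal tubule cells of adult Slc34a1CreERT2;Lats1c/c;Lats2c/+;RosaTomato mice, isolated by fluorescence sorting. These mice carried conditional Lats alleles too, and neither a tamoxifen treatment nor recombination in them is given in the sources used here. It is also not stated that their columns were made with the tool and gene lengths of the tumor columns, and all comparisons with proximal tubule cells depend on this. Allograft tumors grew for 6 weeks from Lats1-/-;Lats2-/- cells placed under the renal capsule of NOD/SCID hosts, immunodeficient mice without T and B cells, that were 6 to 8 weeks old. Whether the implanted cells were 1 clone or line is not given, and the hosts keep their own vessels, fibroblasts and macrophages. Nothing in the labels says that the libraries of a group came from separate animals. Every p-value sets a difference between groups against the spread among these samples, estimated over the 4 groups together, and that spread may be technical.

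The genes of this set encode the parts of a contractile actin machine. Actin filaments are wrapped by tropomyosins, pulled by myosin, cross-linked by alpha-actinin and filamin, and tied to adhesions by vinculin. Acta2, Tagln and Cnn1 are textbook markers of smooth muscle and of activated fibroblasts, while Tpm1, Actn1, Flna and Vcl are made by many epithelial and mesenchymal cells. Lats1 and Lats2 phosphorylate and restrain the coactivators YAP and TAZ, which act with TEAD factors on DNA. Many cytoskeletal genes are also targets of SRF, a transcription factor that binds the CArG box and works with MRTF cofactors released when actin polymerizes.

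The 3 dissected groups stood far from the sorted cells as libraries. Column sums were 706093 to 738052 FPKM in the proximal tubule libraries and 1352270 to 2527750 in the tumors, and 8736 to 8858 genes were listed at 0 in the former against 3362 to 5141 in the latter. Read depth is not given. From the commonest ratio between low values of genes with 1 transcript, tumor libraries had 0.699 to 1.13 times the depth of primary tumor 1, while no such ratio stood out in the proximal tubule libraries (8 of 320 low genes between libraries 2 and 1). Over all 16313 tested genes the median log2 change against proximal tubule cells was 0.59 in primary tumors, 0.68 in metastases and 0.66 in allograft tumors. Other scalings of the libraries removed much of that shift, and the changes below are to be read against it. Summed FPKM of 6 proximal tubule markers (Slc34a1, Lrp2, Cubn, Hnf4a, Slc5a2 and Miox) was 4508 to 5343 in the sorted cells, 71.5, 3085 and 678 in primary tumors 1 to 3, 31.3 to 40.7 in metastases and 10.2 to 29.4 in allograft tumors, so primary tumors 2 and 3 kept much tubule RNA.

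Both DNA motifs named above were looked for in the members' promoters. RefSeq promoter sequences (GRCm38.p6) matched 8 of the 9 members, all but Tagln. In these, 250 bases before each annotated start were searched on both strands. The CArG box was searched only in its exact form, CCWWWWWWGG, where W is A or T. Variants with another base were not counted, so a window without a match may still hold one. This exact form was found in 2 of the 8 windows (Myl9 and Vcl), against 1.467% of all 32851 windows. The TEAD core, GGAATG or CATTCC on the other strand, was found in 4 of the 8 (Acta2, Tpm1, Flna and Vcl), against 12.64% of all windows. A match describes the letters in the window and shows no binding. The 3 promoters below are shown because Vcl holds both motifs, Myl9 holds a CArG box alone and Flna, the member with the highest change in allograft tumors, holds a TEAD core alone. They are printed 5′ to 3′ on the gene's strand, from 250 bases before the RefSeq start up to the first base that GENCODE vM21 annotates as exon, with the motifs in capitals. The Vcl stretch is chr14:20929148-20929397 on the plus strand, the Myl9 stretch chr2:156775214-156775419 on the plus strand and the Flna stretch chrX:74246556-74246784 on the minus strand, all in GRCm38. The Flna stretch lies inside the span of the gene given below, in an intron of a transcript that starts further upstream.
Vcl: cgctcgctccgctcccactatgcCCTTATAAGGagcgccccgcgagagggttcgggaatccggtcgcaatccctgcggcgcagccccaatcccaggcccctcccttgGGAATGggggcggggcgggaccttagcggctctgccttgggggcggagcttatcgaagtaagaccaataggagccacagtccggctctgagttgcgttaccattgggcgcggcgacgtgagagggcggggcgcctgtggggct
Myl9: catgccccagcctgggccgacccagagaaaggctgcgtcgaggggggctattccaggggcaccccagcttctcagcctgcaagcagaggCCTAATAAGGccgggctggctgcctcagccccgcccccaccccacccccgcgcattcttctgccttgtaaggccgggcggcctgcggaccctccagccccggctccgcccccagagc
Flna: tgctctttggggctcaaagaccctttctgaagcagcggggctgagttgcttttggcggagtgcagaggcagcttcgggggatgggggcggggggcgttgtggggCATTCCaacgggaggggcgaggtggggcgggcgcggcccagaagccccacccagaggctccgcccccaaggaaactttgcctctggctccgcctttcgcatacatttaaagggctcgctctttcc
The first base of the CArG box lay 227 bases before the start in Vcl and 161 in Myl9. The first base of the TEAD core lay 143 bases before the start in Vcl, 146 in Flna, 146 in Acta2 and 56 in Tpm1. In Acta2 and Tpm1 the match also lay inside the span of the gene given below. It came after the first base annotated as exon, which followed 33 bases of the window in Acta2 and 57 in Tpm1.

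All 9 members were lowest in the sorted proximal tubule cells and higher in every metastasis and every allograft tumor. In 6 of them (Acta2, Tagln, Tpm1, Tpm2, Actn1 and Flna) the highest group mean was that of the allograft tumors, and in 3 (Cnn1, Myl9 and Vcl) that of the metastases. Their summed level was 96.7 to 121 FPKM in proximal tubule cells, 1327, 315 and 432 FPKM in primary tumors 1 to 3, 1346 to 1609 FPKM in metastases and 1380 to 1871 FPKM in allograft tumors. Primary tumor 1 was the highest of the 3 primary tumors for 9 of 9 members, and primary tumor 2 the lowest for 8 of 9. Because these are bulk samples, fewer cells of a type and less RNA per cell cannot be told apart.

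**Figure D1:**
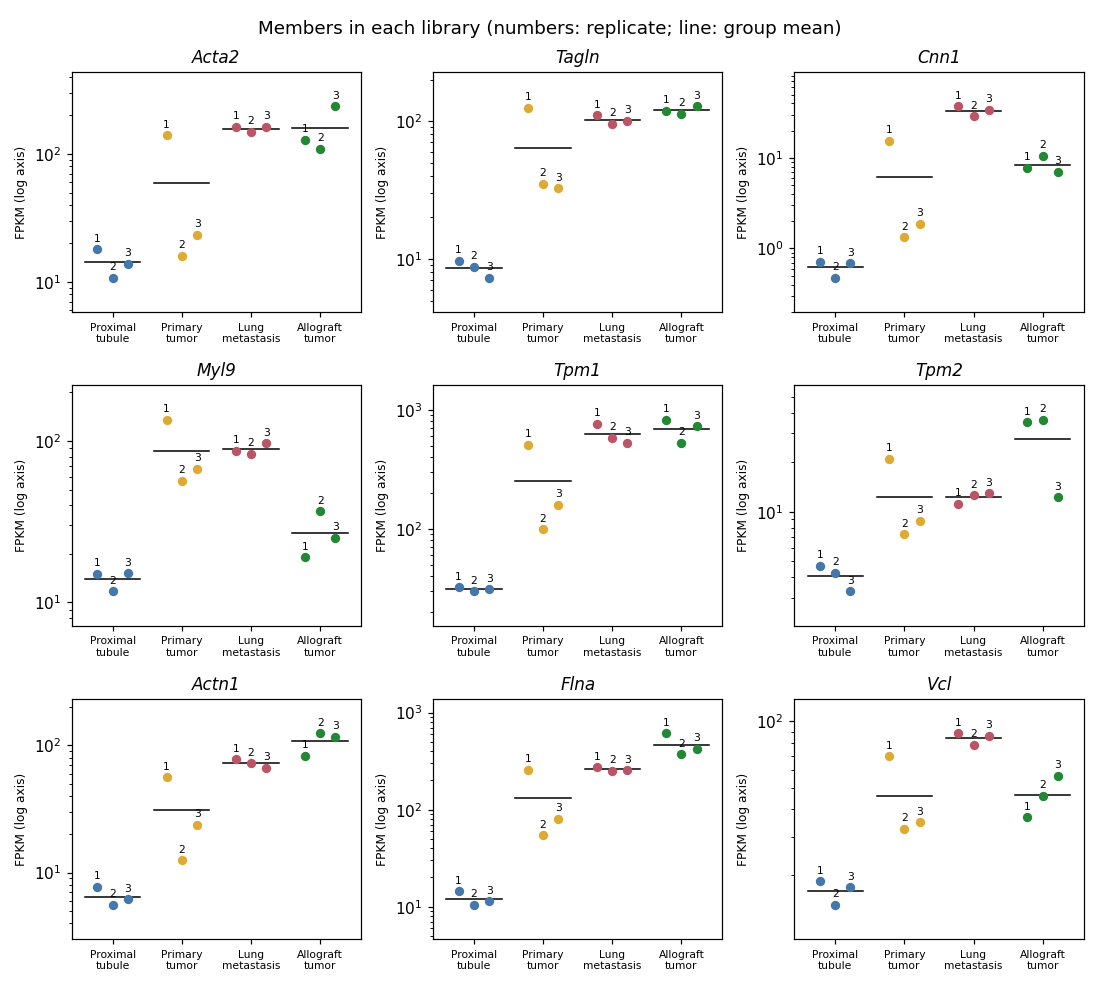
FPKM of each member in each library on a log axis, with 1 panel per gene and 4 groups along the horizontal axis; points are libraries, their numbers the replicates and lines the group means. All 9 genes are lowest in proximal tubule cells, primary tumor 1 lies above primary tumors 2 and 3 in every panel, and Cnn1, Myl9 and Vcl are lower in allograft tumors than in metastases.

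Acta2 encodes smooth muscle alpha-actin, the filament itself, and lies at chr19:34241090-34255590 on the minus strand (GENCODE vM21, GRCm38). It was at 18.0, 10.8 and 13.9 FPKM in the proximal tubule libraries, 140, 15.9 and 23.5 FPKM in the primary tumors, 162, 149 and 163 FPKM in the metastases and 129, 110 and 236 FPKM in the allograft tumors. Primary tumor 1 lay just under the 3 metastases and far above primary tumors 2 and 3, and primary tumor 2 lay within the range of the sorted cells. Acta2 rose by a log2 change of 3.41 ± 0.64 (SE, n = 3 against 3, as in all that follow) in metastases (adjusted p = 8.45e-04) and of 3.33 ± 0.64 in allograft tumors (adjusted p = 9.01e-04). In primary tumors the change was 1.38 ± 0.64 and did not pass the test (adjusted p = 0.0932). Without primary tumor 2 it was 1.97 and called (adjusted p = 0.0207). Set against Actb, the actin of non-muscle cells, Acta2 made up 1.80 to 2.44% of the Actb level in sorted cells, 5.15, 1.47 and 2.58% in primary tumors 1 to 3, 3.94 to 4.67% in metastases and 3.20 to 5.63% in allograft tumors. A common factor per library leaves this share as it is, though quantile normalization does not. As deposited it was higher in every metastasis and allograft tumor than in every proximal tubule library. Of the 50-base stretches of the Acta2 transcript, 0.353% also occur in other genes, in Actg1 and pseudogenes, and none in Acta1, the actin of skeletal muscle.

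Tagln encodes transgelin, an actin-binding protein of smooth muscle (chr9:45929619-45936058, minus strand). Its levels were 9.68, 8.74 and 7.31 FPKM in proximal tubule cells, 125, 35.2 and 32.6 FPKM in primary tumors, 110, 95.8 and 101 FPKM in metastases and 119, 113 and 128 FPKM in allograft tumors. No tumor library overlapped the sorted cells, and the 3 allograft tumors lay just above the 3 metastases. Tagln rose in all 3 comparisons with proximal tubule cells, by 2.49 ± 0.41 in primary tumors (adjusted p = 6.73e-04), 3.43 ± 0.41 in metastases (adjusted p = 4.57e-05) and 3.67 ± 0.41 in allograft tumors (adjusted p = 2.65e-05). These 3 calls held under all 5 scalings and with any 1 library left out.

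Cnn1 encodes calponin 1, an inhibitor of actomyosin ATPase in differentiated smooth muscle (chr9:22099216-22109630, plus strand). It had 0.713, 0.475 and 0.685 FPKM in proximal tubule cells and 15.3, 1.33 and 1.88 FPKM in primary tumors. The metastases reached 37.3, 28.7 and 34.0 FPKM and the allograft tumors 7.80, 10.5 and 6.98 FPKM. Cnn1 was the lowest member in 9 of the 12 libraries, and its metastases lay above every other library. The ratio of group means, metastases over proximal tubule cells, was 53.4, the highest ratio of any member in that comparison. Its divisor is a mean of 0.624 FPKM, a level whose error cannot be stated, so the size and rank of this ratio are uncertain. On the log2 scale Cnn1 rose by 4.40 ± 0.58 in metastases (adjusted p = 8.68e-05), close to Flna (4.33 ± 0.46). In allograft tumors Cnn1 rose by 2.52 ± 0.58 (adjusted p = 0.00266). In primary tumors the change of 1.56 ± 0.58 passed narrowly (adjusted p = 0.0417), was lost when any 1 proximal tubule library was left out (highest adjusted p = 0.101), and passed under 1 of the 5 scalings.

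Myl9 encodes the regulatory light chain of smooth muscle and non-muscle myosin, the site at which contraction is switched on by phosphorylation (chr2:156775420-156781658, plus strand). Proximal tubule cells had 15.1, 11.7 and 15.2 FPKM, primary tumors 136, 56.8 and 67.3 FPKM, metastases 86.6, 83.5 and 96.8 FPKM and allograft tumors 19.0, 36.7 and 25.2 FPKM. This order differed from that of the other members: every primary tumor and every metastasis lay above every allograft tumor. Myl9 rose by 2.45 ± 0.32 in primary tumors (adjusted p = 1.73e-04) and 2.59 ± 0.32 in metastases (adjusted p = 5.49e-05). The rise of 0.86 ± 0.32 in allograft tumors (adjusted p = 0.0315) lay near the median of all genes, was called in 1 of the 6 fits that left out 1 library (highest adjusted p = 0.123), passed under 1 of the 5 scalings and turned to -0.48 after rescaling to TPM.

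Tropomyosins stabilize actin filaments and set which myosins may bind them. Tpm1 (chr9:67022590-67049406, minus strand) was the most abundant member in 12 of 12 libraries, with 32.2, 29.9 and 31.1 FPKM in proximal tubule cells, 507, 99.4 and 159 FPKM in primary tumors, 761, 580 and 531 FPKM in metastases and 827, 530 and 728 FPKM in allograft tumors. All 9 tumor libraries lay above the sorted cells, and metastases and allograft tumors overlapped. Tpm1 rose by 2.65 ± 0.47 in primary tumors (adjusted p = 0.00114), 4.27 ± 0.47 in metastases (adjusted p = 3.23e-05) and 4.42 ± 0.47 in allograft tumors (adjusted p = 2.26e-05), and each of these calls held under all 5 scalings. The table gives 1 value per gene, so the many Tpm1 isoforms, some muscle-specific, are not resolved.

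Tpm2 (chr4:43514711-43523765, minus strand) was far lower than Tpm1. It stood at 4.71, 4.27 and 3.29 FPKM in proximal tubule cells, 21.0, 7.28 and 8.80 FPKM in primary tumors, 11.1, 12.6 and 12.9 FPKM in metastases and 34.9, 36.2 and 12.2 FPKM in allograft tumors. Allograft tumor 3 lay among the metastases, well under allograft tumors 1 and 2. Tpm2 rose by 2.37 ± 0.43 in allograft tumors (adjusted p = 6.11e-04), 1.38 ± 0.43 in metastases (adjusted p = 0.0146) and 1.26 ± 0.43 in primary tumors (adjusted p = 0.0298). Under each of the 4 other scalings the calls in primary tumors and metastases were lost, with adjusted p of up to 0.602 and 0.423. The call in primary tumors was also lost in 4 of the 6 fits that left out 1 library, those without primary tumor 1 (0.83, adjusted p = 0.0991) or any 1 proximal tubule library. The ratio of Tpm1 to Tpm2 within a library, which a common factor per library leaves as it is, was 6.85, 7.01 and 9.45 in sorted cells, 24.1, 13.7 and 18.0 in primary tumors, 68.3, 46.1 and 41.2 in metastases and 23.7, 14.6 and 59.6 in allograft tumors. It was higher in all 9 tumor libraries than in the 3 proximal tubule libraries, and allograft tumor 3 sat with the metastases.

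Actn1 encodes alpha-actinin 1, which cross-links filaments in stress fibers (chr12:80167547-80260371, minus strand). Its levels were 7.69, 5.59 and 6.17 FPKM in proximal tubule cells, 56.3, 12.5 and 23.7 FPKM in primary tumors, 77.7, 72.3 and 67.1 FPKM in metastases and 83.2, 125 and 117 FPKM in allograft tumors. The 4 groups did not overlap and rose in that order. Actn1 rose by 1.85 ± 0.41 in primary tumors (adjusted p = 0.00395), 3.30 ± 0.41 in metastases (adjusted p = 6.43e-05) and 3.86 ± 0.41 in allograft tumors (adjusted p = 2.23e-05). The first of these passed under 3 of the 5 scalings (highest adjusted p = 0.175). Of its 50-base stretches 0.434% are shared, with Actn4.

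Flna encodes filamin A, a large protein that joins filaments into networks and links them to membranes (chrX:74223461-74249820, minus strand). It had 14.3, 10.5 and 11.4 FPKM in proximal tubule cells, 257, 54.5 and 80.6 FPKM in primary tumors, 274, 252 and 254 FPKM in metastases and 614, 372 and 422 FPKM in allograft tumors. Primary tumor 1 reached the metastases, and the 3 allograft tumors lay above every other library. Flna showed the highest log2 change of the 9 members in primary tumors, 3.02 ± 0.46 (adjusted p = 4.27e-04), and in allograft tumors, 5.15 ± 0.46 (adjusted p = 8.75e-06). In metastases it rose by 4.33 ± 0.46 (adjusted p = 2.31e-05). All 3 calls held under all 5 scalings and with any 1 library left out. Flna is X-linked, and primary tumors 2 and 3 had 0.323 and 0.374 FPKM of Xist, the RNA of the inactive X, against 141 to 183 FPKM in sorted cells. The part of sex in the levels and spread of Flna and of the other members was not tested.

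Vcl encodes vinculin, which couples actin to integrin and cadherin adhesions (chr14:20929398-21033676, plus strand). It was at 18.8, 14.7 and 17.6 FPKM in proximal tubule cells, 69.4, 32.6 and 34.9 FPKM in primary tumors, 88.5, 78.1 and 86.2 FPKM in metastases and 36.7, 46.0 and 56.5 FPKM in allograft tumors. The metastases lay above every other library, and allograft and primary tumors overlapped. Vcl rose by 1.29 ± 0.27 in primary tumors (adjusted p = 0.00268), 2.25 ± 0.27 in metastases (adjusted p = 4.92e-05) and 1.38 ± 0.27 in allograft tumors (adjusted p = 9.75e-04). The metastasis call held under all 5 scalings, that in allograft tumors under 3 and that in primary tumors under 2 (highest adjusted p = 0.989 and 0.604).

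Counted over the set, 8 of the 9 members were called higher in primary tumors than in proximal tubule cells and 0 lower. This is to be read against the background, in which 48.2% of all 16313 tested genes were called higher and 4.90% lower in that comparison. In metastases 9 of 9 were called higher and 0 lower, where 54.0% of all genes were called higher and 14.4% lower. In allograft tumors 9 of 9 were called higher and 0 lower, where 52.2% were called higher and 16.9% lower. At an unadjusted p under 0.05 limma's counts were the same, 8, 9 and 9 higher and 0 lower in each. The median change of the members was 1.85, 3.41 and 3.33 in these 3 comparisons, above the median of all genes in each. Placed among the changes of all genes, the members ran from percentile 77.0 (Tpm2) to 95.8 (Flna) in primary tumors, from 72.0 (Tpm2) to 97.0 (Cnn1) in metastases and from 56.7 (Myl9) to 98.5 (Flna) in allograft tumors. The 3 comparisons share the same proximal tubule libraries, so their counts are not independent of one another.

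With about 1 in 2 of all genes called higher, the counts say less than the sizes, and the scaling of the libraries decided some calls. After median-of-ratios scaling the median change of all genes was 0.071, 0.19 and 0.18 in primary tumors, metastases and allograft tumors. The members' median was then 1.25, 2.83 and 2.72, and 5, 8 and 8 members were called higher, while 25.3, 37.0 and 37.2% of all tested genes were. After rescaling to TPM 4, 8 and 6 members were called higher, while 17.4, 26.4 and 20.7% of all tested genes were, with a median change of all genes of -0.34, -0.24 and -0.44. Calls held under all 5 scalings for Tagln, Myl9, Tpm1 and Flna in primary tumors, for all members but Tpm2 in metastases, and for Acta2, Tagln, Tpm1, Actn1 and Flna in allograft tumors.

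**Figure D2:**
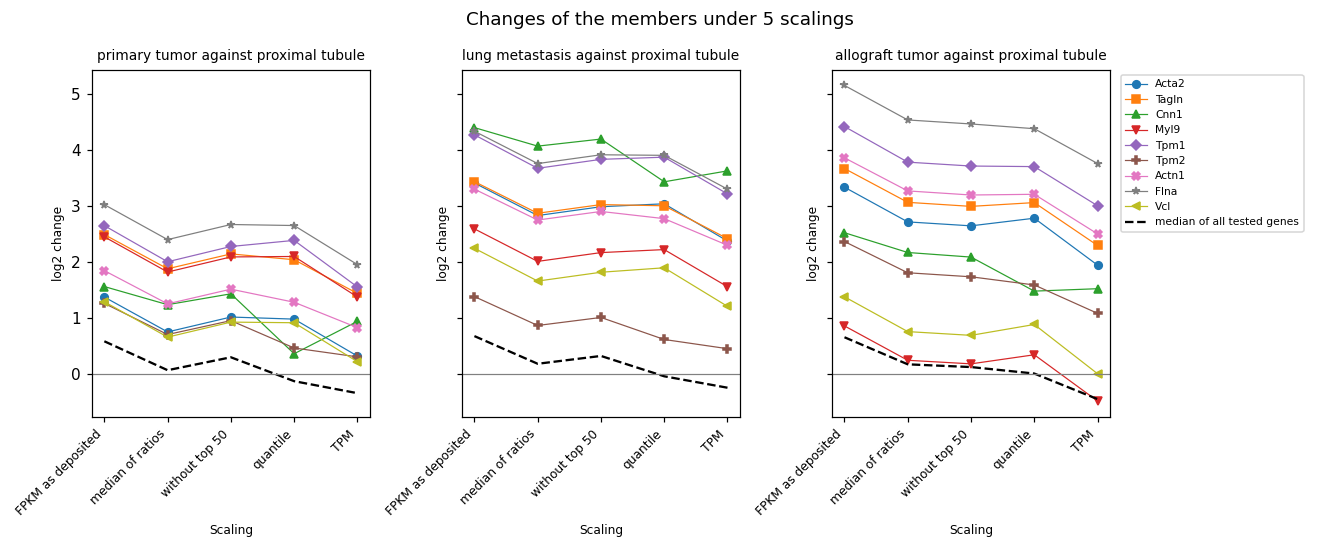
Log2 change of each member against proximal tubule cells (vertical axis) under 5 scalings of the libraries (horizontal axis), with 1 panel per tumor group; colored lines are members and the dashed line is the median of all tested genes. The median of all genes falls from 0.59, 0.68 and 0.66 as deposited to -0.34, -0.24 and -0.44 after TPM rescaling, and the members fall along with it while Flna, Tpm1 and Tagln stay well above 0 in each panel.

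Metastases were next compared with the primary tumors. Of the 9 members, 5 were called higher in metastases and 0 lower, where 11.3% of all tested genes were called higher and 9.59% lower. The called genes were Cnn1 (2.83 ± 0.58, adjusted p = 0.00775), Acta2 (2.03 ± 0.64, adjusted p = 0.0473), Tpm1 (1.62 ± 0.47, adjusted p = 0.0372), Actn1 (1.45 ± 0.41, adjusted p = 0.0334) and Vcl (0.95 ± 0.27, adjusted p = 0.0323). For these 5 genes every metastasis lay above every primary tumor. The other members had changes of 1.31 ± 0.46 (Flna, adjusted p = 0.0655), 0.94 ± 0.41 (Tagln, adjusted p = 0.121), 0.14 ± 0.32 (Myl9, adjusted p = 0.787) and 0.12 ± 0.43 (Tpm2, adjusted p = 0.871). The members' median change was 1.31, against 0.0065 for all genes. At an unadjusted p under 0.05 limma gave 7 higher and 0 lower.

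Much of this contrast depended on primary tumors 2 and 3, the libraries with much tubule RNA. Of the 5 calls only that of Cnn1 held with any 1 library left out (highest adjusted p = 0.0367) and under all 5 scalings. The count of members called higher was 1 without primary tumor 2, without primary tumor 3 or without any 1 metastasis, and 7 without primary tumor 1. Of all tested genes 6.17, 5.95, 3.36 to 4.86 and 20.4% were called higher in these fits. With primary tumor 1 as the only primary tumor, assumed to vary like the other groups, it was 1, where 3.74% of all tested genes were called higher, and the members' median change was 0.17. Cnn1 stood at 15.3 FPKM in that library, under each metastasis, whereas Tagln (125 FPKM), Myl9 (136 FPKM) and Tpm2 (21.0 FPKM) stood above all 3 metastases there.

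Allograft tumors differed from primary tumors in both directions. Of the 9 members 5 were called higher and 1 lower, where 20.5% of all genes were called higher and 21.1% lower. Flna (2.13 ± 0.46, adjusted p = 0.00452) and Actn1 (2.01 ± 0.41, adjusted p = 0.00364) were higher and Myl9 (-1.59 ± 0.32, adjusted p = 0.00308) lower, and these 3 calls held under all 5 scalings and with any 1 library left out. Acta2 (1.96 ± 0.64, adjusted p = 0.0321), Tpm1 (1.77 ± 0.47, adjusted p = 0.0135) and Tagln (1.18 ± 0.41, adjusted p = 0.0393) were also called higher, but less firmly. Of the 6 fits that left out 1 library, their calls held in 2, 5 and 1 (highest adjusted p = 0.113, 0.0513 and 0.147). They held under 2, 4 and 2 of the 5 scalings. Tpm2 (1.10, adjusted p = 0.0613), Cnn1 (0.96, adjusted p = 0.207) and Vcl (0.089, adjusted p = 0.816) did not pass. The count of members called higher was 2 without primary tumor 3, 7 without primary tumor 1, 3 without primary tumor 2 and 3 without allograft tumor 1, where 15.0, 24.3, 18.8 and 15.8% of all tested genes were called higher.

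The direct test between allograft tumors and metastases called 0 members higher and 3 lower, where 10.4% of all genes were called higher and 13.3% lower. At an unadjusted p under 0.05 limma gave 1 higher and 3 lower. At 3.30 times the allograft mean in metastases, Myl9 was lower in allograft tumors by a log2 change of -1.73 ± 0.32 (adjusted p = 0.00319), a call that held with any 1 library left out (highest adjusted p = 0.0199). Cnn1 was lower by -1.87 ± 0.58 (adjusted p = 0.0390) and Vcl by -0.87 ± 0.27 (adjusted p = 0.0404). Both held under all 5 scalings, but the Cnn1 call was lost on leaving out any 1 of the 6 libraries (adjusted p from 0.0578 to 0.111) and the Vcl call on leaving out any but allograft tumor 3 (highest adjusted p = 0.137). The count of members called lower was 1 or 2 in these fits: 2 without allograft tumor 3 and 1 in the others. Flna (0.82 ± 0.46, adjusted p = 0.230), Tpm2 (0.98 ± 0.43, adjusted p = 0.127) and Actn1 (0.56 ± 0.41, adjusted p = 0.373) were not called, although every allograft tumor lay above every metastasis for Flna and Actn1. Acta2, Tagln and Tpm1 changed by -0.075, 0.23 and 0.15 and were not called either.

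**Figure D3:**
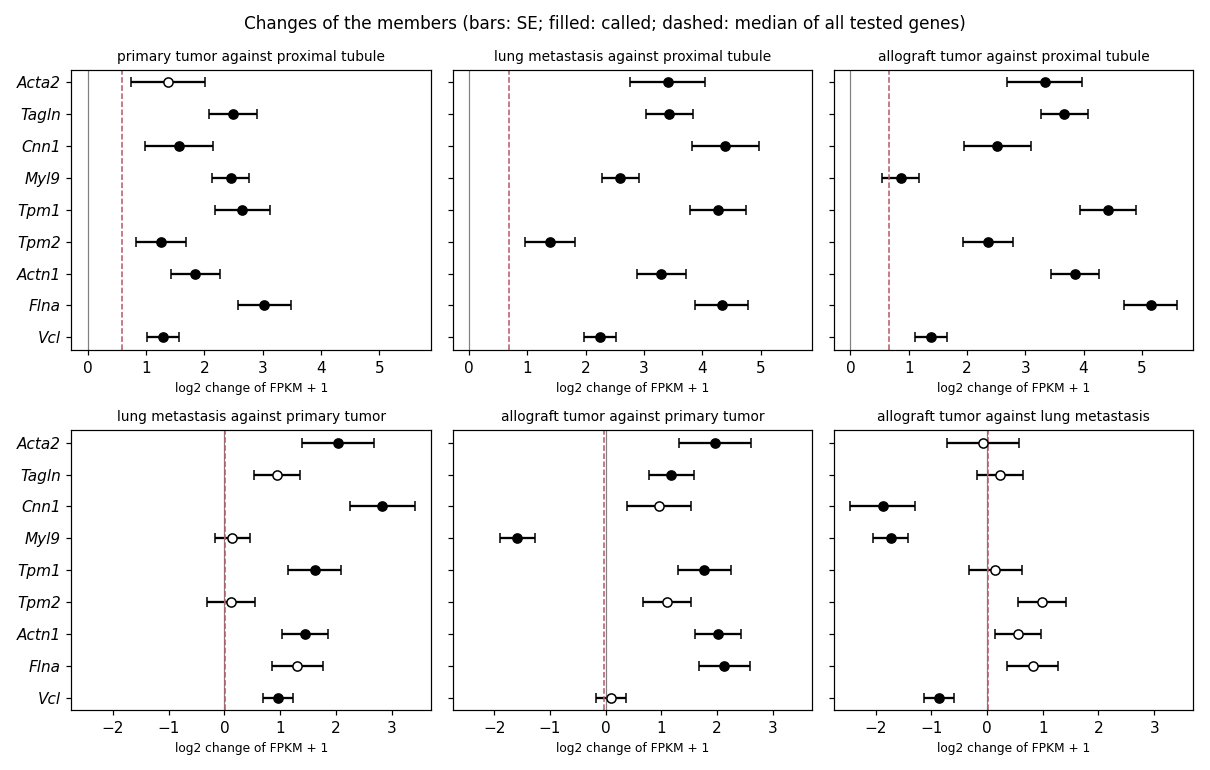
Log2 change of FPKM + 1 (horizontal axis) of the 9 members in the 6 comparisons, with the standard error as bars; filled points passed the test at an adjusted p under 0.05, and the dashed line is the median of all tested genes. The upper panels show the shift of all members above proximal tubule cells, and the lower right panel shows Cnn1, Myl9 and Vcl as the 3 members called lower in allograft tumors than in metastases.

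Ratios between genes of the same library, which a common factor per library leaves as they are, are given for this split. The pairs were chosen after their values had been seen, so no test is given. Flna over Myl9 was 0.951, 0.893 and 0.748 in proximal tubule cells, 1.90, 0.960 and 1.20 in primary tumors and 3.16, 3.02 and 2.62 in metastases. In allograft tumors it was 32.3, 10.1 and 16.7, above every other library. Cnn2, the non-muscle paralog of Cnn1, stood at 3.36, 3.18 and 2.38 times the level of Cnn1 in proximal tubule cells, 8.26, 17.9 and 15.9 times in primary tumors, 6.26, 6.87 and 5.55 times in metastases and 36.3, 18.2 and 29.8 times in allograft tumors. By this ratio the metastases were the tumors with the most Cnn1 for their Cnn2.

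**Figure D4:**
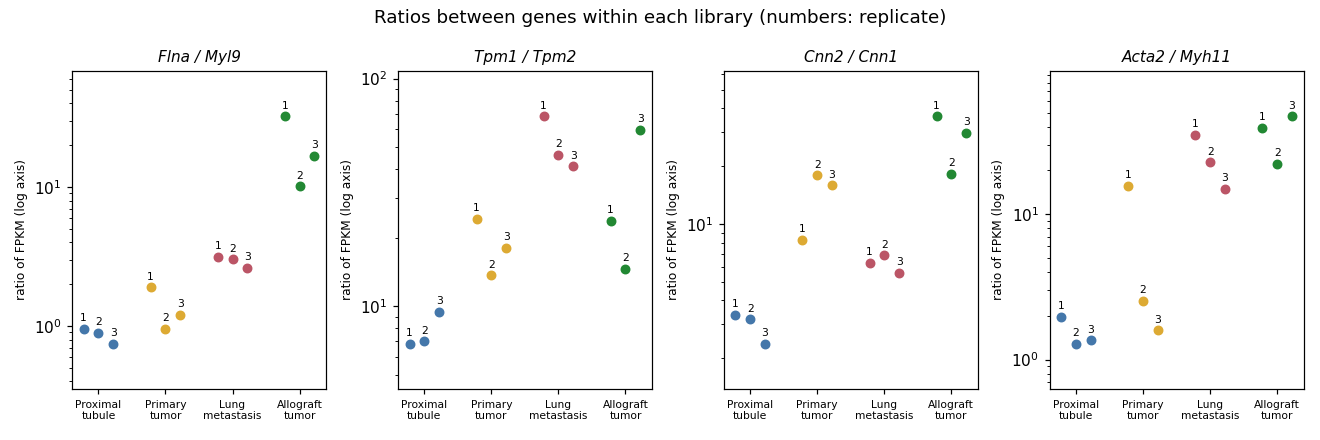
Ratio of FPKM of 4 pairs of genes within each library, on log axes, by group; points are libraries and their numbers the replicates. Flna over Myl9 and Cnn2 over Cnn1 are highest in allograft tumors, where Flna over Myl9 lies between 10.1 and 32.3, and Acta2 over Myh11 is higher in metastases and allograft tumors than in proximal tubule cells.

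Across the 12 libraries, values of the 9 members on the log2 scale were correlated with one another, given here as a description of libraries that share 4 groups and their scaling. Pearson's r over the 36 pairs ran from 0.381 (Myl9 and Tpm2) to 0.990 (Tpm1 and Flna), with a median of 0.862. The 10 pairs among Acta2, Tagln, Tpm1, Actn1 and Flna had r of 0.928 to 0.990. The 8 pairs with Myl9 had r of 0.381 to 0.835, the highest with Vcl. Within groups, the coefficient of variation of a member was 45.2 to 128% in primary tumors, 4.61 to 19.4% in metastases, 6.25 to 48.6% in allograft tumors and 3.66 to 25.4% in proximal tubule cells.

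Among all tested genes with a name other than a Gm or Rik number, those most like each member over the 12 libraries were found by the same Pearson's r. They were Inhba for Acta2 (0.985), Fam114a1 for Tagln (0.993), Prr16 for Cnn1 (0.987), Il6st for Myl9 (0.978), Fgd3 for Tpm1 (0.997), Arfgap1 for Tpm2 (0.971), Pdlim7 for Actn1 (0.996), Ccdc102a for Flna (0.997) and Rhog for Vcl (0.987). Pdlim7 encodes a LIM protein of actin filaments. No 2 of the members had the same closest gene.

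The other genes of actin filaments were read from lists of actins, paralogs, myosin and adhesion genes. Beside these lists, 48.2, 54.0 and 52.2% of all tested genes were called higher in primary tumors, metastases and allograft tumors. The shares called lower were 4.90, 14.4 and 16.9%. After TPM rescaling the shares were 17.4, 26.4 and 20.7% higher and 34.9, 37.5 and 44.5% lower. Of 5 further actins, 1, 4 and 4 were called higher than proximal tubule cells in primary tumors, metastases and allograft tumors and 0 lower, and after TPM rescaling 0, 2 and 2 higher and 1, 0 and 0 lower. Actb rose by 1.13 ± 0.39 (adjusted p = 0.0318), 2.49 ± 0.39 (adjusted p = 2.60e-04) and 2.59 ± 0.39 (adjusted p = 1.80e-04), with the first call lost under the 4 other scalings. The largest rise in allograft tumors was that of Acta1 (5.50 ± 1.45, adjusted p = 0.00603), at 267, 227 and 1.00 FPKM. Of the 10 tested paralogs of the members 6, 7 and 9 were called higher and 0 lower. Cnn2 led them in all 3 comparisons (4.03 ± 0.49, 6.19 ± 0.49 and 6.32 ± 0.49), and Tpm4, the most abundant, rose by 2.44 ± 0.44, 4.28 ± 0.44 and 4.49 ± 0.44; these 6 calls held under all 5 scalings. After TPM rescaling 3, 5 and 6 paralogs were called higher and 2 in each comparison lower.

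Non-muscle myosin and its regulators gave 9, 10 and 8 of 12 genes called higher and 0, 0 and 1 lower, but 0, 4 and 2 higher and 1, 1 and 6 lower after TPM rescaling. The counts in this paragraph are to be read against the shares of all genes just given. Myl12a, a light chain gene akin to Myl9, rose by 1.67 ± 0.33, 2.93 ± 0.33 and 3.10 ± 0.33 in primary tumors, metastases and allograft tumors, and Myh9, a heavy chain, by 1.88 ± 0.29, 2.68 ± 0.29 and 2.91 ± 0.29. In allograft tumors Myl12a was thus at 284, 225 and 410 FPKM while Myl9 was at 19.0, 36.7 and 25.2 FPKM. Myh14, a heavy chain of epithelia, rose in metastases (2.59 ± 0.43, adjusted p = 3.67e-04) and fell in allograft tumors (-1.89 ± 0.43, adjusted p = 0.00247). Of 16 focal adhesion and linker genes, partners of Vcl and Actn1, 11, 12 and 12 were called higher and 0, 1 and 2 lower, and after TPM rescaling 2, 6 and 6 higher and 5, 4 and 5 lower. Csrp1, a LIM protein that binds alpha-actinin, led the rises (2.93 ± 0.32, 4.81 ± 0.32 and 4.09 ± 0.32). Tln2, one of the talins that recruit vinculin, fell in metastases (-2.36 ± 0.39, adjusted p = 3.56e-04) and allograft tumors (-2.52 ± 0.39, adjusted p = 2.06e-04).

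SRF and its cofactors moved little beside the members. Srf was at 11.5, 9.86 and 8.25 FPKM in proximal tubule cells, 8.04, 6.37 and 5.55 FPKM in primary tumors, 13.4, 13.1 and 13.7 FPKM in metastases and 14.7, 13.2 and 15.0 FPKM in allograft tumors. Its fall in primary tumors (-0.51 ± 0.16, adjusted p = 0.0229) held under all 5 scalings, while its rises in metastases (0.41 ± 0.16, adjusted p = 0.0418) and allograft tumors (0.50 ± 0.16, adjusted p = 0.0181) turned negative under 3 and 4 of the 4 other scalings, reaching -0.56 (adjusted p = 0.0424) and -0.80 (adjusted p = 0.00780) after TPM rescaling. Mrtfa was called higher in all 3 (0.93 ± 0.27, 1.13 ± 0.27 and 1.11 ± 0.27) and Mrtfb in metastases (0.76 ± 0.24), each as deposited only. Myocd, the cofactor that drives smooth muscle differentiation, was under 1 FPKM in all 12 libraries and was not tested.

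Genes of smooth muscle were mixed. Their counts stand beside 48.2, 54.0 and 52.2% of all tested genes called higher in primary tumors, metastases and allograft tumors. After TPM rescaling these shares were 17.4, 26.4 and 20.7%. Of the 10 tested genes of a smooth muscle list 6, 7 and 6 were called higher than proximal tubule cells in primary tumors, metastases and allograft tumors and 0, 0 and 1 lower, and after TPM rescaling 2, 5 and 5 higher and 0, 1 and 2 lower. They were led by Csrp1 and, in allograft tumors, by Cald1, caldesmon (4.13 ± 0.56, adjusted p = 8.93e-05). The list shares genes with the others, Csrp1 among them. Myh11, the smooth muscle myosin heavy chain, was at 9.10, 8.37 and 10.2 FPKM in proximal tubule cells, 8.91, 6.27 and 14.8 FPKM in primary tumors, 4.64, 6.53 and 10.9 FPKM in metastases and 3.28, 4.97 and 5.00 FPKM in allograft tumors. It changed by 0.033 ± 0.32 (adjusted p = 0.940) and -0.36 ± 0.32 (adjusted p = 0.340) in primary tumors and metastases and fell by 0.93 on the log2 scale in allograft tumors (adjusted p = 0.0241). Lmod1, leiomodin 1 of smooth muscle, lay between 0.465 and 1.20 FPKM in all 12 libraries. Acta2 over Myh11 was 1.98, 1.29 and 1.36 in proximal tubule cells, 15.7, 2.54 and 1.59 in primary tumors, 35.0, 22.8 and 14.9 in metastases and 39.3, 22.2 and 47.2 in allograft tumors.

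Markers of fibroblasts and macrophages were higher in each tumor group, while those of pericytes and endothelium were mixed. Their part in these results was not tested. Of all tested genes 48.2, 54.0 and 52.2% were called higher than proximal tubule cells in primary tumors, metastases and allograft tumors. The shares called lower were 4.90, 14.4 and 16.9%. After TPM rescaling the shares were 17.4, 26.4 and 20.7% higher and 34.9, 37.5 and 44.5% lower. The 8 fibroblast markers (Col1a1, Col1a2, Col3a1, Dcn, Lum, Pdgfra, Dpt and Postn) summed to 1.35 to 2.83 FPKM in proximal tubule cells, with Dpt listed at 0 in all 3, and to 1083, 149 and 300 FPKM in primary tumors, 596 to 729 FPKM in metastases and 1680 to 2799 FPKM in allograft tumors. All 8 were called higher in each tumor group. The 10 vascular smooth muscle and pericyte markers (Myh11, Rgs5, Notch3, Pdgfrb, Cspg4, Des, Kcnj8, Abcc9, Higd1b and Lmod1) summed to 50.1 to 54.7 FPKM in sorted cells, 141, 78.0 and 123 FPKM in primary tumors, 87.9 to 113 FPKM in metastases and 134 to 171 FPKM in allograft tumors, with 4, 5 and 6 of 10 called higher and 1, 2 and 2 lower. The median change of this list was 0.72, 0.67 and 1.27, against 0.59, 0.68 and 0.66 for all genes. Des is in the list, and its allograft values are given below with those of muscle markers. Macrophage markers (5 genes, 5 called higher in each tumor group) summed to 5.01 to 6.56 FPKM in sorted cells and to 152 to 2961 FPKM in tumors. Endothelial markers (6 genes; 6, 6 and 2 called higher, but 2, 4 and 0 higher and 0, 0 and 3 lower after TPM rescaling) summed to 41.3 to 62.6 FPKM in sorted cells, 184 to 225 in primary tumors, 291 to 488 in metastases and 69.2 to 130 in allograft tumors. Primary tumor 1, highest for all 9 members, also had the highest fibroblast and macrophage sums of the primary tumors.

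Epithelial markers were read as well. Of the 6, 5 were at 1 FPKM or more in all 3 proximal tubule libraries, so they cannot tell tumor from normal epithelium. Krt8, Krt18, Krt19, Epcam, Pax8 and Cdh1 together gave 118 to 173 FPKM in proximal tubule cells, 262 to 407 in primary tumors, 410 to 460 in metastases and 496 to 707 in allograft tumors. Of these 6 genes 4, 3 and 3 were called higher than proximal tubule cells in primary tumors, metastases and allograft tumors and 0, 1 and 2 lower, and after TPM rescaling 3, 2 and 2 higher and 1, 1 and 2 lower. Of all tested genes 48.2, 54.0 and 52.2% were called higher in these comparisons, and 17.4, 26.4 and 20.7% after TPM rescaling. The genes named next were chosen after their values were seen. In allograft tumors the keratin genes Krt8, Krt18 and Krt19 were called higher, Pax8, a transcription factor of kidney epithelium, was lower (-1.68 ± 0.30, adjusted p = 6.14e-04) and Epcam was not called (-0.27, adjusted p = 0.764). Cdh1, the epithelial cadherin, was there at 0.938, 7.87 and 2.01 FPKM, lower than in proximal tubule cells (-2.13 ± 0.45, adjusted p = 0.00166).

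Muscle RNA was present in some libraries. Its part in the levels of members that striated muscle also makes was not tested. The 6 skeletal muscle markers (Acta1, Ckm, Myh4, Tnnt3, Mylpf and Actn3) summed to 747 and 608 FPKM in allograft tumors 1 and 2 and to 3.62 FPKM in allograft tumor 3, with Ckm listed at 0 there, and to at most 4.75 FPKM elsewhere. Tpm2, which skeletal muscle makes, was at 34.9 and 36.2 FPKM in those 2 allograft tumors and 12.2 FPKM in allograft tumor 3. Des, the muscle intermediate filament, was at 85.5, 44.5 and 4.46 FPKM. With allograft tumor 3 as the only allograft tumor (tried after the data had been seen, and assumed to vary like the other groups), 7 members were still called higher than proximal tubule cells, 1 higher and 1 lower than primary tumors, and 1 lower than metastases. Of the 16028 tested genes 7213 were called higher in the first of these comparisons, 14.1% higher and 13.3% lower in the second and 10.2% lower in the third. Without allograft tumor 3, Tpm2 was called higher than in primary tumors (1.59, adjusted p = 0.00797) and metastases (1.47, adjusted p = 0.0178). Cardiac markers (Myh6, Actc1, Tnnt2, Myl7, Nppa and Ryr2), genes of heart muscle, summed to 73.1 to 139 FPKM in metastases and 33.8 to 50.2 FPKM in allograft tumors, against at most 2.86 FPKM in the other libraries. Few genes made up the allograft sums. There 2 of the 6 were at 1 FPKM or more in all 3 libraries and 3 were under 1 FPKM in all 3. Myl7 and Nppa were listed at 0 in at least 1 allograft tumor.

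**Figure D5:**
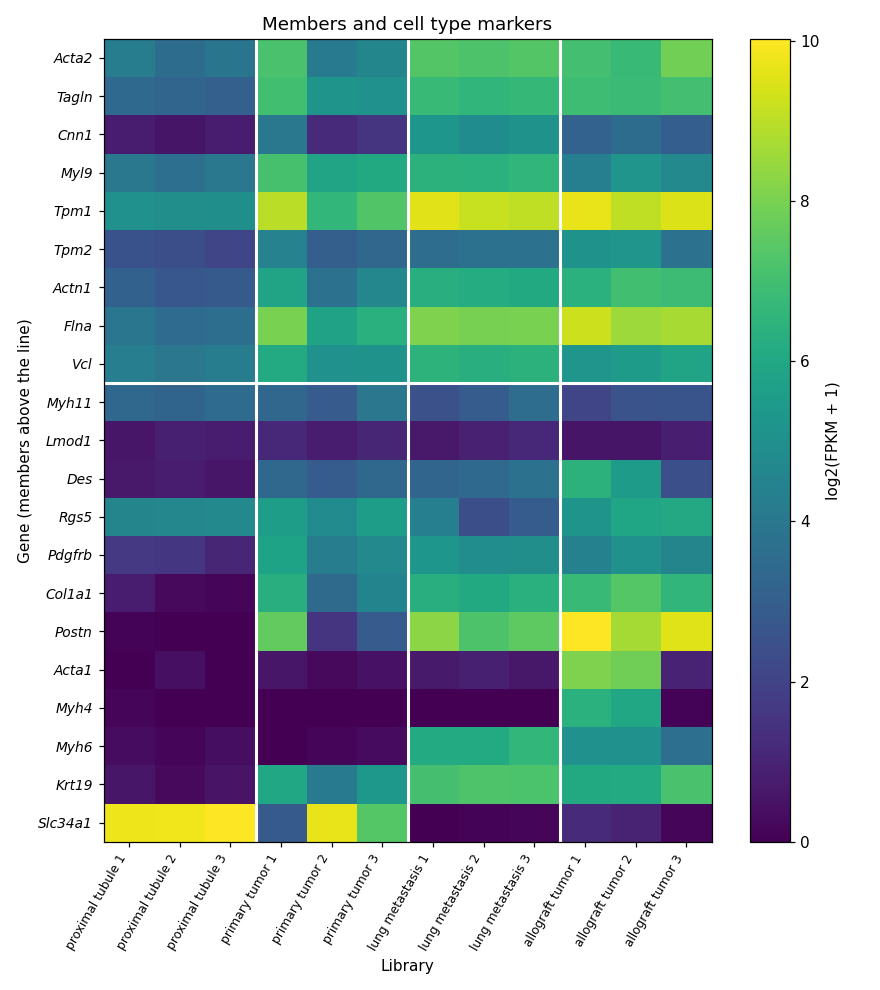
Log2(FPKM + 1) of the 9 members (above the white line) and of 12 marker genes (below it) in the 12 libraries, by group; brighter colors are higher levels. Members and fibroblast genes such as Postn are dark in proximal tubule cells and bright in most tumors, Myh11 and Lmod1 stay low throughout, and Acta1 and Myh4 are bright in allograft tumors 1 and 2 only.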

How the data were processed

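The deposited table gives FPKM, which the authors computed, for 24432 genes (24189 with a symbol) in 12 libraries. The submitters' processing notes name Salmon, bcl2fastq 2.17.1.14 and the builds GRCm38 and mm10. The sources used here give no gene lengths, strandedness, read depth or Salmon version. Without counts no counting interval can be given.

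The values were used as deposited. The 16313 genes that reached 1 FPKM in 3 or more libraries were kept, 1 was added before log2, and 1 linear model over the 4 groups was fitted in R 4.3.3 (limma 3.58.1, with its intensity trend of the variance). A fold on this scale understates the change of low genes. P-values of the 6 comparisons were adjusted by Benjamini-Hochberg over all 16313 genes, with calls at an adjusted p under 0.05. The fit was tested on simulated data.

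The members, the gene lists and the motifs were chosen with earlier results of these data known. All members are named. From each list, the largest called rise and fall per comparison with proximal tubule cells, the most abundant gene, the SRF genes, Myh11 and Des could be named, and exceptions are stated. Likeness was Pearson's r of log2(FPKM + 1) over 12 libraries. The labels give no pairing and none was used. Libraries sharing a replicate number did not deviate together (r from -0.043 to 0.098 over 18 pairs of libraries). Samples of 1 animal under different numbers could not be detected this way.

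Alternatives were other pseudocounts (0.1 and 5), no filter or 5 FPKM, 4 other scalings (TPM, median of ratios, quantile, and a common sum without the 50 most abundant genes), only the 2 groups compared, a replicate block, and leaving out each library or primary tumors 2 and 3 together. Leaving out allograft tumors 1 and 2 together was added after the data had been seen. Figures were drawn with matplotlib 3.10.9.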

Additional observations from a re-analysis of the deposited data

How the results depend on the processing

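Pseudocounts and filters reversed no change of a member. The share of higher calls among all called genes was 90.8% in primary tumors as deposited, against 33.2% (TPM), 58.1% (median of ratios), 39.4% (quantile) and 74.8% (without the 50 most abundant genes). In metastases it was 78.9%, against 41.3, 57.7, 46.5 and 63.6%, and in allograft tumors 75.6%, against 31.7, 56.7, 50.01 and 54.3%. Against primary tumors it was 54.2% in metastases, against 43.1% without the 50 genes, and 49.3% in allograft tumors, against 31.6% (TPM) and 29.1% (without the 50 genes). In allograft tumors against metastases it was 44.0%, against 16.9% (TPM), 54.8% (quantile) and 23.3% (without the 50 genes).

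Members called higher in primary tumors against proximal tubule cells numbered 8, against 4 (TPM), 5 (median of ratios) and 4 (quantile). Of all tested genes 48.2% were called higher there, against 17.4% (TPM), 25.3% (median of ratios) and 13.9% (quantile). In metastases against primary tumors the 5 members called became 2 (TPM), 2 (quantile), 1 (without the 50 genes), 0 (only the 2 groups compared), 1 (without primary tumors 2 and 3) and 1 to 7 on leaving out 1 library. In allograft against primary tumors the 5 members became 3 (TPM), 2 (quantile), 3 (without the 50 genes), 2 (only the 2 groups compared), 1 (without primary tumors 2 and 3), 1 (without allograft tumors 1 and 2) and 2 to 7 on leaving out 1 library, and the 1 lower member became 2 without primary tumors 2 and 3. In allograft tumors against metastases the 0 higher members became 1 (only the 2 groups compared; 0 to 1 on leaving out 1 library) and the 3 lower members 1 without allograft tumors 1 and 2 and 1 to 2 on leaving out 1 library. The cause of these changes was not tested, beyond the fewer samples that some settings leave.

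Signs turned for Myl9 in allograft tumors against proximal tubule cells (-0.48, TPM). Without primary tumors 2 and 3, metastases against primary tumors gave -0.29 (Tagln), -0.61 (Myl9) and -0.74 (Tpm2), and allograft against primary tumors gave -0.059 (Tagln), -0.81 (Cnn1, adjusted p = 0.0484) and -0.59 (Vcl). Vcl in the latter comparison was also -0.21 (TPM), -0.031 (quantile) and -0.24 (without the 50 genes). In allograft tumors against metastases, Acta2 was 0.58 without allograft tumors 1 and 2, Tagln -0.12 (TPM) and -0.032 (without the 50 genes), and Tpm1 -0.21 (TPM), -0.17 (quantile) and -0.12 (without the 50 genes). On leaving out 1 library, Myl9 and Tpm2 ranged from -0.11 to 0.52 and from -0.15 to 0.55 in metastases against primary tumors, Vcl from -0.10 to 0.43 in allograft against primary tumors and Acta2 from -0.40 to 0.14 in allograft tumors against metastases.

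The replicate block rests on numbers that the labels do not tie to shared animals. With it, the members called in the 6 comparisons were 8, 9, 8, 6, 6 and 0 higher and 0, 0, 0, 0, 1 and 2 lower. Of all tested genes 47.4, 53.4, 51.7, 11.4, 19.9 and 9.61% were called higher there. The shares called lower were 4.90, 14.3, 16.6, 9.04, 20.2 and 12.7%. Flna in metastases against primary tumors (adjusted p = 0.0359) and Tpm2 in allograft against primary tumors (adjusted p = 0.0494) gained a call, and Myl9 in allograft tumors against proximal tubule cells (adjusted p = 0.0513) and Vcl in allograft tumors against metastases (adjusted p = 0.0523) lost theirs. Depth is unknown, so values under 1 FPKM, such as Cnn1 in proximal tubule cells, carry an error that cannot be stated.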
